A study of Homo sapiens with 12 samples.

Results

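UCA1, MALAT1, NEAT1, PVT1, TUG1, MIAT and MIR22HG are genes for long noncoding RNAs, transcripts that are processed and often spliced like messenger RNA but encode no known protein. They were taken by gene name from a table of read counts for 58735 genes, of which 14994 carried an annotated long noncoding RNA biotype, and all 7 were found. The genes were chosen by name with their counts in these same samples already known, so levels and differences of the 7 genes are given as descriptions without p-values. RNA sequencing had been carried out on HK-2 cells, a human proximal tubule epithelial line immortalised with papillomavirus genes. The 3 drugs, all known for kidney toxicity, were compared with untreated cells after 48 h: iohexol, an iodinated X-ray contrast agent, at 75 mg I/mL, cisplatin, a platinum agent that crosslinks DNA, at 5 µM, and vancomycin, a glycopeptide antibiotic, at 4 mM. Each of the 4 groups (Control, Iohexol, Cisplatin, Vancomycin) had 3 samples. The labels number these samples without saying whether they were separate cultures, so spreads and p-values describe the differences between these samples, which may be technical.

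Long noncoding RNAs act as RNA molecules, often close to where they are made. MALAT1 gathers in nuclear speckles, which store splicing factors, and NEAT1 is the scaffold around which paraspeckles are built. UCA1 was first described in bladder carcinoma, lies mostly outside the nucleus and is known as a transcript of proliferating and hypoxic epithelial cells. PVT1 is the noncoding neighbour of the MYC oncogene. TUG1 was named as a taurine-responsive transcript and has been linked to Polycomb repression and to podocyte mitochondria. MIAT was found through a myocardial infarction locus and is best known from neurons, and MIR22HG is the host transcript of the microRNA miR-22.

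The end of the MALAT1 transcript and of the long NEAT1 isoform is formed without a poly(A) tail. RNase P cuts ahead of a tRNA-like structure and the new end folds back into a triple helix of U-rich and A-rich stretches. These stretches are shown because the libraries were made from poly-T selected RNA, so the way a transcript ends bears on how it is captured. In the GENCODE 29 transcripts, every run of at least 10 bases in the last 60 bases of NEAT1-202 (chromosome 11, GRCh38, positions 65445481 to 65445540, plus strand) that also occurs in MALAT1-202 is in capitals. The MALAT1 stretch (positions 65506065 to 65506116, plus strand) stops 353 bases before the annotated end.
NEAT1-202: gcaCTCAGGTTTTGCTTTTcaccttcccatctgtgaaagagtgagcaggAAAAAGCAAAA
MALAT1-202: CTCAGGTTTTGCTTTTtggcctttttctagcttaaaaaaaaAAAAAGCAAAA
A U-rich run of 16 bases and an A-rich run of 11 bases were shared, in the same order in both genes. The A-rich run formed the last 11 bases of NEAT1-202. In MALAT1 it ended a longer stretch of A, and a further copy of it lay 7945 bases before the annotated end. The short NEAT1 isoform, NEAT1-201 (3441 bases), lies within the gene span of the long one (22743 bases), so a count for NEAT1 does not tell them apart.

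GENCODE 29 lists 36 UCA1 transcripts, from 532 to 2687 bases, and the counts add up over all of them.
MIR22HG is shown by the mature microRNAs cut from it, from RefSeq (GRCh38.p14, chromosome 17, minus strand, positions 1713914 to 1713935 for the 3p arm and 1713952 to 1713973 for the 5p arm). Capitals mark the seed, bases 2 to 8, which pairs with target messages.
hsa-miR-22-3p: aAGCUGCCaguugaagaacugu
hsa-miR-22-5p: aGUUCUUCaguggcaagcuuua
Neither seed was shared by another mature human microRNA in the same table. The miR-22 hairpin gene had 0 counts in all 12 libraries, so the values below are for the host transcript and say nothing of the mature microRNA.

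Library totals ran from 14057282 to 18177109 counts. In these libraries 3 counts, the floor used for detection, correspond to between 0.165 and 0.213 CPM, the read count scaled to library size, with library sizes adjusted by TMM factors. The factors were lowest with Vancomycin (0.885 to 0.897) and highest with Cisplatin (1.12 to 1.13), and scaling by library size alone moved the median gene by 0.22 on the log2 scale with Cisplatin. Of 15 proximal tubule markers, PAX8, GGT1, DPP4 and MME were well expressed, while SLC22A6 was at 0 in every library and LRP2, SLC22A8, SLC13A3 and HNF4A never exceeded 4 counts. The epithelial genes KRT8, KRT18 and EPCAM were present and CDH1 was at most 0.502 CPM in any library. The immune markers PTPRC and CD68 never exceeded 5 counts and the endothelial marker CDH5 never exceeded 3. PECAM1, the other endothelial marker, averaged 1.33 CPM in Control, 3.80 in Iohexol, 1.85 in Cisplatin and 0.0831 in Vancomycin, and its part in the results was not tested. Sums over the lists moved between groups, and their part in the results was not tested. The tubule markers summed to 706 to 814 CPM in Control, 981 to 1158 in Iohexol, 396 to 411 in Cisplatin and 1372 to 1477 in Vancomycin. This sum rests mostly on PAX8, GGT1, DPP4 and MME, which did not all move alike. From Control to Iohexol, mean PAX8 went from 372 to 617 CPM and GGT1 from 190 to 147 CPM. The 4 mesenchymal markers summed to 652 to 680 CPM in Control, 353 to 385 in Iohexol, 404 to 422 in Cisplatin and 838 to 964 in Vancomycin. Most of that sum was VIM, which averaged 630, 347, 364 and 840 CPM in the same groups. In bulk RNA, a change in the share of cells that make a transcript and a change per cell cannot be told apart.

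UCA1 gave the widest range of levels among the 7 genes. The 3 Control samples were at 52.3, 50.2 and 50.6 CPM. The Iohexol samples reached 385, 362 and 339 CPM. The Cisplatin samples were at 49.6, 42.9 and 47.3 CPM, and the Vancomycin samples at 17.2, 15.1 and 17.4 CPM. No group overlapped another, and the order was Iohexol, Control, Cisplatin, Vancomycin, with only a narrow gap between Control and Cisplatin. The group means were 51.0 ± 1.09 CPM (SD, n = 3) in Control, 361.9 ± 23.1 in Iohexol, 46.6 ± 3.38 in Cisplatin and 16.6 ± 1.25 in Vancomycin. UCA1 was thus 7.09-fold higher with Iohexol and 3.08-fold lower with Vancomycin than in Control, and the ends of the order were 21.8-fold apart. On the log2 scale the differences from Control were 2.85 (SE 0.09) with Iohexol, -0.13 (SE 0.08) with Cisplatin and -1.66 (SE 0.11) with Vancomycin. The Cisplatin difference turned to 0.0866 when libraries were scaled by size alone, so its direction depends on the scaling.

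**Figure D1:**
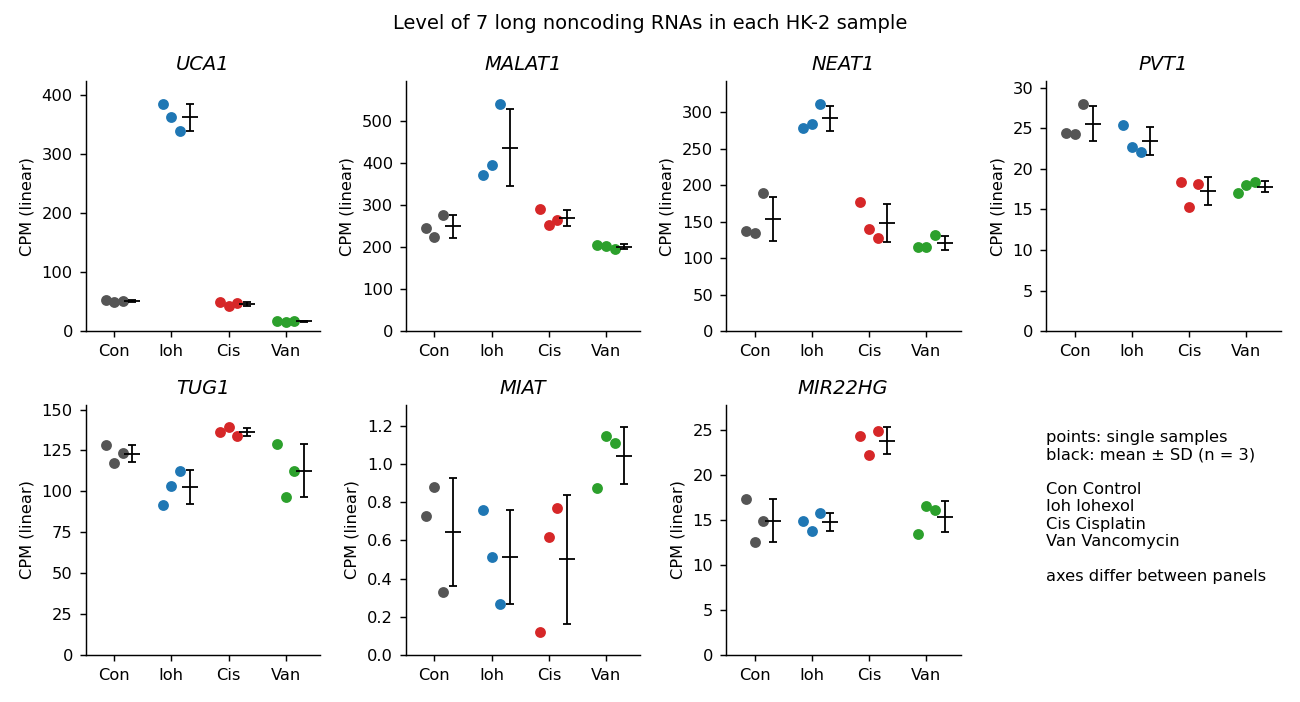
Level of each of the 7 long noncoding RNAs in the 12 HK-2 samples, in CPM on linear axes that start at 0 and differ between panels. Points are single samples and the black marks are the mean ± SD of 3 samples. UCA1 sits between 339 and 385 CPM in Iohexol and between 15.1 and 17.4 CPM in Vancomycin, and the MIR22HG samples of Cisplatin sit between 22.2 and 25.0 CPM, above all others.

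Divided by the length of its exons (4152 bases), UCA1 was at 12.3 CPM per kb in Control and at 87.2 CPM per kb in Iohexol. Among all annotated long noncoding RNAs it ranked 27 in Control, 1 in Iohexol, 42 in Cisplatin and 138 in Vancomycin. MALAT1, which is among the most abundant nuclear RNAs of most cells, ranked 7, 2, 7 and 10 in the same groups. The ratio of UCA1 to MALAT1, both as levels per kb, ranged from 0.388 to 0.475 in Control and from 1.33 to 2.19 in Iohexol. With these lengths, the order of these genes by level per kb was thus turned round in every Iohexol sample. The UCA1 length joins the exons of all its transcripts, the longest of which has 2687 bases. A shorter length would raise its levels per kb and its ratio to MALAT1 in every group, Control included, so ranks and order depend on it. In CPM, UCA1 was at 385, 362 and 339 and MALAT1 at 373, 397 and 542, so UCA1 was above MALAT1 in the first Iohexol sample only. The part of poly-T selection in these ranks was not tested. With Vancomycin the ratio was between 0.158 and 0.189. By fitted fold change UCA1 ranked 34 from the top among 15657 genes tested with Iohexol, and 97.7% of genes tested with Vancomycin had a higher log2 fold change than UCA1.

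UCA1 lies at chromosome 19, positions 15828206 to 15836326, on the plus strand. The antisense gene LINC01764 overlaps it, and because the library kit does not mark strand, reads of these genes cannot be told apart where they overlap. LINC01764 had 16 counts over the 12 libraries against 21689 for UCA1. These counts do not show how reads in the shared stretch divide between the genes. Of all 31-base words in UCA1 transcripts, 2.82% also occur in a transcript of another gene, so few reads could be shared with a copy elsewhere. The gene sharing most of these words, RF02202, lies within UCA1 itself.

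MALAT1 and NEAT1 showed the same order of groups at the ends as UCA1, over a smaller range. MALAT1 was at 247, 225 and 277 CPM in the Control samples and at 373, 397 and 542 CPM in the Iohexol samples. It was at 292, 254 and 264 CPM in Cisplatin and at 205, 204 and 195 CPM in Vancomycin. All Iohexol samples lay above all others, all Vancomycin samples lay below, and Cisplatin overlapped Control. The third Iohexol sample stood apart from the first and the second, and without it the Iohexol difference, 0.83 on the log2 scale (SE 0.13), came to 0.65. The differences with Cisplatin and Vancomycin were 0.11 (SE 0.07) and -0.35 (SE 0.09).

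NEAT1 was at 137, 135 and 189 CPM in Control, with the third sample well above the others. The Iohexol samples were at 279, 284 and 311 CPM, above every other sample. The Cisplatin samples at 177, 140 and 127 CPM overlapped Control, while the Vancomycin samples at 115, 116 and 132 CPM lay below Control and overlapped Cisplatin. The log2 differences from Control were 0.94 (SE 0.12) with Iohexol, -0.05 (SE 0.12) with Cisplatin and -0.39 (SE 0.11) with Vancomycin. As levels per kb, the ratio of NEAT1 to MALAT1 was 0.237 ± 0.0245 (SD, n = 3) in Control, 0.263 ± 0.0355 in Iohexol, 0.212 ± 0.0243 in Cisplatin and 0.233 ± 0.0250 in Vancomycin. The ranges of this ratio overlapped between all groups, while both genes lay apart from Control in Iohexol and Vancomycin. Leaving out single samples moved the Cisplatin difference of NEAT1 between -0.20 and 0.11, so it has no stable sign. The antisense gene AP000769.2 lies wholly within MALAT1 and had 0 counts. Reads there cannot be told apart by strand, so this 0 says nothing of antisense transcription.

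PVT1 was at 24.4, 24.3 and 28.0 CPM in Control and at 25.4, 22.7 and 22.1 CPM in Iohexol, which overlapped. It was lower in every Cisplatin sample, at 18.4, 15.3 and 18.1 CPM, and in every Vancomycin sample, at 17.1, 18.0 and 18.4 CPM. These groups overlapped each other and not Control. The log2 differences were -0.11 (SE 0.12), -0.57 (SE 0.11) and -0.57 (SE 0.12) with Iohexol, Cisplatin and Vancomycin. Of the 31-base words of PVT1, 9.07% occur in another gene, the largest share among the 7 genes. The gene sharing most of them, RF02164, lies within PVT1 itself, so this share does not measure copies elsewhere.

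TUG1 differed from Control by at most 0.25 on the log2 scale with any drug. The Control samples were at 128, 117 and 124 CPM and the Cisplatin samples, at 136, 139 and 134 CPM, lay just above them. The Iohexol samples, at 91.6, 103 and 113 CPM, lay just below, and the Vancomycin samples, at 129, 96.6 and 113 CPM, spread across both. The log2 differences were -0.25 (SE 0.10) with Iohexol, 0.15 (SE 0.06) with Cisplatin and -0.17 (SE 0.10) with Vancomycin. Cisplatin gave the tightest set, with an SD of 2.51 CPM against 16.2 CPM in Vancomycin. AC004542.1 and AC004542.2 lie within TUG1 on the other strand and had 0 counts. Reads there cannot be told apart by strand, so these counts say nothing of antisense transcription.

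MIR22HG was highest in Cisplatin, and its Cisplatin samples lay above every sample of the other groups. They were at 24.4, 22.2 and 25.0 CPM, against 17.3, 12.5 and 14.9 CPM in Control. Iohexol, at 14.9, 13.7 and 15.8 CPM, and Vancomycin, at 13.5, 16.6 and 16.1 CPM, overlapped Control. The log2 difference was 0.68 (SE 0.12) with Cisplatin and 0.01 with each of the other drugs (SE 0.15 and 0.14). MIR22HG overlaps the protein-coding gene WDR81 on the other strand, and reads in the shared stretch cannot be told apart.

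MIAT was near the limit of detection. Its counts ran from 2 to 18 per library, and the group means were 0.644 ± 0.284 CPM in Control, 0.513 ± 0.246 in Iohexol, 0.502 ± 0.338 in Cisplatin and 1.04 ± 0.147 in Vancomycin (SD, n = 3). The groups overlapped at every step of the order. The interval of its log2 difference with Vancomycin, from -0.24 to 1.52 at 95%, leaves differences in either direction compatible with these counts, and the intervals with Iohexol and Cisplatin were wider still. The long noncoding RNA MIATNB overlaps MIAT on the same strand and had 395 counts over the 12 libraries. These counts do not show how reads in the shared stretch divide between the genes.

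Each drug was read against Control in a fit over all genes that passed a filter on low counts, and all 7 genes passed in each comparison. A gene was called where its Benjamini-Hochberg adjusted p was below 0.05 and its log2 fold change was above 1 or below -1. Among the 7 genes, 1 was past these thresholds with Iohexol (UCA1, higher), 0 with Cisplatin and 1 with Vancomycin (UCA1, lower), where 5.28%, 16.3% and 18.5% of all tested genes were called. The samples of 4 of the 7 genes did not overlap Control with Iohexol (3 above, 1 below), 4 with Cisplatin (2 above, 2 below) and 4 with Vancomycin (all 4 below), where the background over all tested genes was 37.9%, 65.1% and 63.2%. Since the genes were chosen with these contrasts known, nothing is read from these counts. The 3 comparisons share their Control samples.

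**Figure D2:**
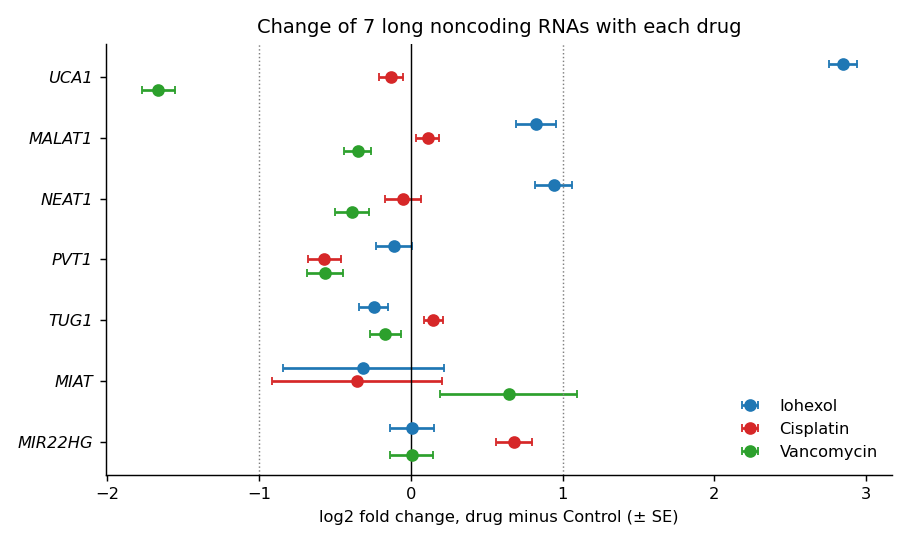
Log2 fold change of the 7 genes with each drug against Control (horizontal axis, points with ± SE from the edgeR fit, 3 samples a group). Dotted lines mark 1 and -1. UCA1 lies at 2.85 with Iohexol and at -1.66 with Vancomycin, and the other genes lie within 1 of 0.

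Genes whose profile was most like that of each long noncoding RNA were found by the Pearson correlation of log2 CPM over the 12 samples, among genes with a mean of at least 1 CPM. The samples share 4 group means, so r follows mostly those means and is given as a description. The genes most like UCA1 were NAAA, a lysosomal amidase of fatty acid ethanolamides (r = 0.993), PCDH1, a protocadherin of epithelial contacts (0.985), UPB1, an enzyme of pyrimidine breakdown (0.981), CA2, a carbonic anhydrase (0.974), and the long noncoding RNA AL161431.1 (0.972). PCDH1 averaged 15.9 CPM in Control, 64.0 in Iohexol, 15.4 in Cisplatin and 10.1 in Vancomycin, the same order as UCA1. AL161431.1 had the widest range, from 2.31 CPM in Control to 28.7 in Iohexol and 0.560 in Vancomycin, though unlike UCA1 its mean in Cisplatin (3.73 CPM) was above Control.

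**Figure D3:**
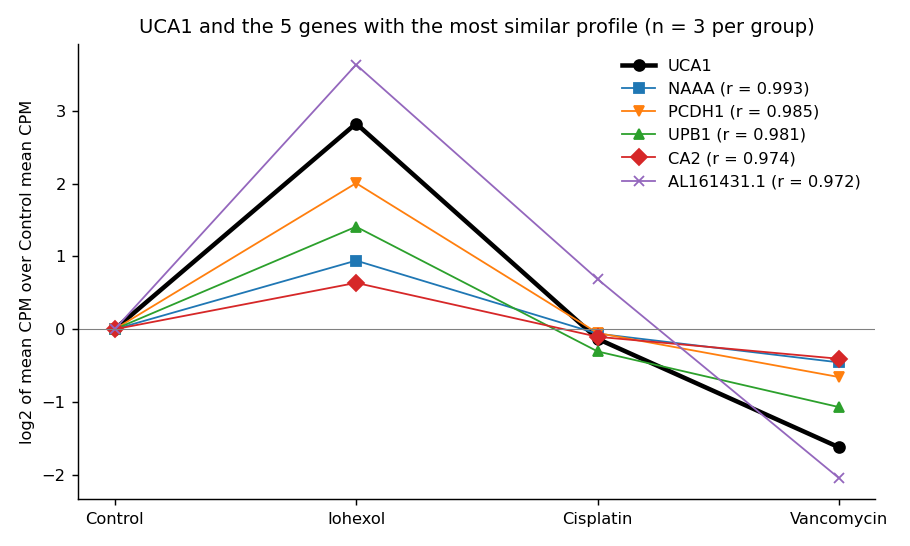
Mean CPM of UCA1 and of the 5 genes with the highest correlation to it, as log2 of the ratio to the Control mean (vertical axis), in the 4 groups (n = 3 each, lines join group means). All 6 genes peak in Iohexol and are lowest in Vancomycin.

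NEAT1 was among the genes most like MALAT1 (r = 0.943), after OSBPL11, SEC61A2 and SPON1, and UCA1 and MALAT1 were among those most like NEAT1 (0.940 and 0.943), beside PPL, NAAA and PCDH1. PVT1 was closest to ASTN2, GALNT13 and DIP2A (r of 0.955, 0.952 and 0.950), which were also lower with Cisplatin and Vancomycin. ASTN2 averaged 45.5 CPM in Control and 8.55 in Cisplatin. TUG1 was closest to POLR3A, the largest subunit of RNA polymerase III (0.941), and GTF3C4, a subunit of its factor TFIIIC (0.940). MIR22HG was closest to RBM18 (0.962) and CYP27B1, the kidney enzyme that makes active vitamin D (0.960), which averaged 3.38 CPM in Control and 9.68 CPM in Cisplatin. For MIAT, 3 of the 5 closest genes were processed pseudogenes. With ranks (Spearman) in place of values, only 1, 0, 0, 0, 2, 1 and 3 of the 5 genes stayed among the first 5 for UCA1, MALAT1, NEAT1, PVT1, TUG1, MIAT and MIR22HG.

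The genes annotated within 100 kb of the 7 genes, without the 7 themselves, were tested in the same fits, with p adjusted over all tested genes. Of these neighbours, 30 could be tested with Iohexol, 31 with Cisplatin and 28 with Vancomycin. With Iohexol 4 rose and 7 fell at an adjusted p below 0.05, with Cisplatin 12 rose and 8 fell, and with Vancomycin 11 rose and 6 fell. Over all genes, 11.2% rose and 9.77% fell with Iohexol, 29.2% and 30.6% with Cisplatin and 29% and 28.8% with Vancomycin, or 21%, 59.8% and 57.9% in either direction. Scaling by library size alone changed the Cisplatin counts to 19 that rose and 5 that fell. Leaving out the third Iohexol sample brought the Iohexol count of risen neighbours to 8.

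UCA1 lies in a stretch of chromosome 19 with few active genes in these cells: of 16 genes within 100 kb, 5 had 0 counts and 2 could be tested. CYP4F11, a fatty acid hydroxylase 76041 bases away, went from 0.601 CPM in Control to 2.64 CPM with Vancomycin (log2 fold change 2.08, SE 0.41, adjusted p = 0.00012), in the opposite direction to UCA1. With Iohexol it was at 0.860 CPM (log2 fold change 0.54, SE 0.50, adjusted p = 0.49).

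NEAT1 and MALAT1 are 52148 bases apart on chromosome 11 and share neighbours. AP000769.1, annotated as a transcribed pseudogene between them, rose with all 3 drugs, by 1.18 with Iohexol, 0.87 with Cisplatin and 1.14 with Vancomycin on the log2 scale (adjusted p of 0.0022, 0.0017 and 0.00014). SLC25A45, a mitochondrial carrier 39073 bases from NEAT1, rose to 5.44 CPM with Iohexol and 7.48 CPM with Cisplatin (log2 fold changes 1.61 and 2.05, SE 0.21 and 0.20, adjusted p of 0.00027 and 1.2e-07). LTBP3, which binds latent TGF-beta, fell with Iohexol (-0.41, adjusted p = 0.010) and Cisplatin (-0.38, adjusted p = 0.00011). FRMD8, 9249 bases from NEAT1, rose with Cisplatin (0.51, adjusted p = 8.5e-06). No tested neighbour of the pair was higher with Iohexol and lower with Vancomycin at an adjusted p below 0.05.

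**Figure D4:**
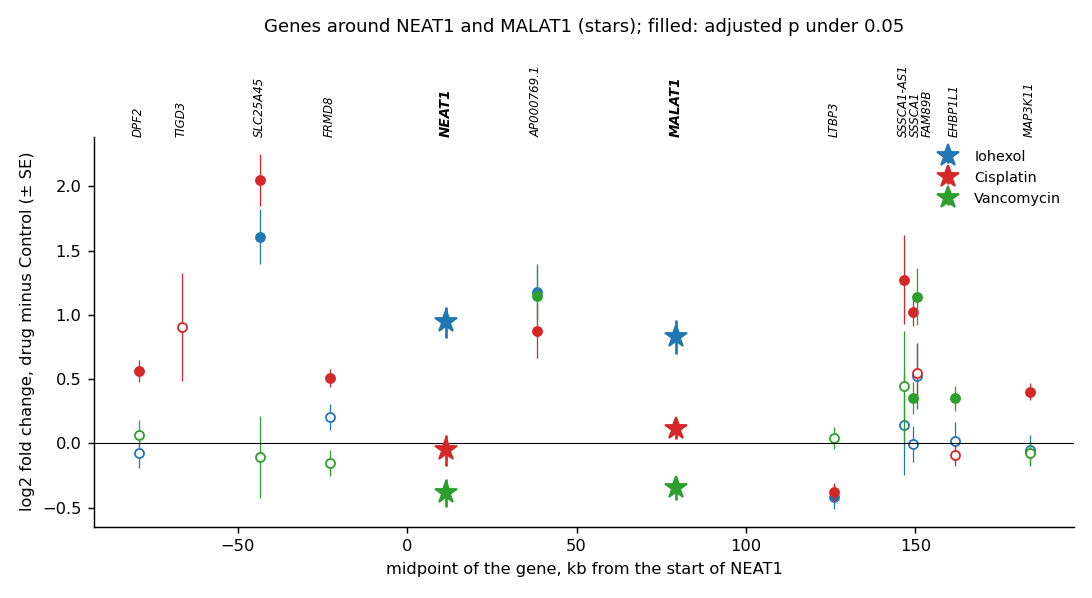
Log2 fold change (± SE) of 11 tested genes within 100 kb of NEAT1 or MALAT1 against the distance of its midpoint from the start of NEAT1 in kb. Colours are drugs, stars are NEAT1 and MALAT1, and filled circles are neighbours with an adjusted p below 0.05. The stars are near 1 with Iohexol and below 0 with Vancomycin, and the neighbours follow other patterns.

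PVT1 and MYC are 53099 bases apart. MYC, the transcription factor of growth and ribosome genes, fell with each drug, from 370 CPM in Control to 273 with Iohexol (log2 fold change -0.42, SE 0.08, adjusted p = 0.0031), 224 with Cisplatin (-0.72, SE 0.05, adjusted p = 3.8e-09) and 198 with Vancomycin (-0.95, SE 0.08, adjusted p = 8.6e-10). PVT1 was lower by 0.57 with Cisplatin and with Vancomycin, beside a difference of -0.11 with Iohexol.

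TUG1 is annotated as a transcript from a bidirectional promoter and lies 947 bases from MORC2, a chromatin silencer read in the other direction. The RefSeq window from 250 bases before to 50 after the TUG1 start (GRCh38.p14, chr22:30969015-30969314, plus strand) is shown with its CCAAT boxes (CCAAT or ATTGG) and its E-box (CACGTG) in capitals.
TUG1 promoter: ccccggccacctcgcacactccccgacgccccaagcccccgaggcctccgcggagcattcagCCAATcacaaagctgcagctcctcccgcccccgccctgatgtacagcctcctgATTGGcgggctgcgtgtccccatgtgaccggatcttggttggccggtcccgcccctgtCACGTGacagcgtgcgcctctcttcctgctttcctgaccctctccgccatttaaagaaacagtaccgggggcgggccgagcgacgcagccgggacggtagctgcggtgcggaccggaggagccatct
A CCAAT box on either strand was present in 34.6% and the E-box in 7.25% of 35097 such RefSeq windows, so these letters are a description of the window. MORC2 did not pass the test with any drug (log2 fold changes 0.09, 0.04 and 0.11, adjusted p of 0.53, 0.64 and 0.35). SMTN, a contractile-cell protein 84710 bases away, fell with Iohexol (-0.90, adjusted p = 3.4e-05), rose with Cisplatin (0.25, adjusted p = 0.0024) and fell with Vancomycin (-0.34, adjusted p = 0.0030), the same signs as the TUG1 differences. OSBP2, 61421 bases away, had the opposite signs with Cisplatin (-0.57, adjusted p = 0.024) and Vancomycin (0.82, adjusted p = 0.00038). With Iohexol it was at -0.04 (adjusted p = 0.93).

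Around MIR22HG, RILP, an effector of RAB7 in lysosome transport, rose with all 3 drugs, from 4.79 CPM to 9.84, 8.39 and 12.8 CPM (adjusted p of 0.0094, 0.00086 and 4.9e-07). WDR81, which overlaps MIR22HG, also rose with all 3 drugs (0.46, 0.39 and 0.36 on the log2 scale), short of the fold threshold. With Iohexol its adjusted p stayed below 0.05 in only 3 of the 6 fits that left out 1 sample. MIR22HG itself was higher with Cisplatin alone. SERPINF2, the plasmin inhibitor, fell with Cisplatin (from 4.74 to 2.24 CPM, adjusted p = 0.00022) and rose with Vancomycin (1.30, adjusted p = 5.0e-07). Around MIAT, TPST2, a tyrosine sulfotransferase, fell with Iohexol (-0.66) and Cisplatin (-0.45) and rose with Vancomycin (0.34), with adjusted p of 0.00061, 6.9e-05 and 0.0035.

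Genes of the pathways around the 7 RNAs were read from lists chosen with earlier results known, without the 7 genes themselves. Over all tested genes the median log2 fold change was 0.01 with Iohexol, 0.01 with Cisplatin and -0.01 with Vancomycin. At an adjusted p below 0.05, 11.2% of all tested genes rose and 9.77% fell with Iohexol. These shares were 29.2% and 30.6% with Cisplatin and 29% and 28.8% with Vancomycin, and they are the background for every list count below. Of 14 reported regulators of UCA1, 2 rose and 3 fell with Iohexol (median 0.04), 4 rose and 7 fell with Cisplatin (median -0.16), and 4 rose and 4 fell with Vancomycin (median 0.18). In each fit that left out 1 sample other than the third Iohexol sample, 1 rose and 1 or 2 fell with Iohexol. HIF1A, the hypoxia factor, rose with Iohexol from 573 to 1164 CPM (log2 fold change 1.04, SE 0.12, adjusted p = 9.6e-05) and fell with Cisplatin to 320.0 CPM (-0.84, adjusted p = 1.5e-08). With Vancomycin it was at 669 CPM (0.18, adjusted p = 0.10). ARNT, also on this list, gave -0.14 with Iohexol (adjusted p = 0.35). WWTR1, the YAP partner TAZ, fell with all 3 drugs, by 0.75, 0.37 and 1.51 on the log2 scale (adjusted p of 0.00018, 3.4e-05 and 3.5e-12). TEAD1, to which it binds on DNA, fell with Vancomycin (-1.21, adjusted p = 5.6e-10). SMAD3 fell with Cisplatin (-1.31) and Vancomycin (-0.95), and ETS2 (1.30, adjusted p = 1.6e-10) and TBX3 (from 2.24 to 8.78 CPM, adjusted p = 6.9e-08) rose with Cisplatin. CEBPB rose with Vancomycin from 106 to 363 CPM (1.73, adjusted p = 1.9e-13).

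Of 7 tested genes of the osmotic response, 5 rose and 0 fell with Iohexol (median 0.84). SLC6A12, a betaine carrier, rose by 4.08, SLC5A3, a myo-inositol carrier, by 2.64 and AKR1B1, aldose reductase, by 2.36 on the log2 scale (adjusted p of 7.0e-08, 2.7e-08 and 7.0e-09). With Cisplatin 3 of 7 rose and 3 fell (median 0.15), and with Vancomycin 3 of 8 rose, SLC6A12 (1.86) and AKR1B1 (0.59) among them, and 3 fell (median 0.17).

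Genes for the proteins that NEAT1 gathers in paraspeckles were read in the same fits. Of 16 tested (MATR3, listed under 2 gene IDs, by its first), 0 rose and 6 fell with Iohexol, 0 rose and 10 fell with Cisplatin, and 3 rose and 9 fell with Vancomycin, and none passed the fold threshold. The medians were -0.24, -0.22 and -0.25. The Iohexol count was 1 without the second or the third Control sample or the second Iohexol sample, 3 without the first sample of either group and 7 without the third Iohexol sample, and with Cisplatin 2 rose and 5 fell when libraries were scaled by size alone. HNRNPA1, a shuttling splicing regulator, fell with Iohexol (-0.53, adjusted p = 0.0017) and Cisplatin (-0.70, adjusted p = 1.0e-08) and rose with Vancomycin (0.45, adjusted p = 7.7e-05). SFPQ, which NEAT1 needs to build the body, fell with Cisplatin (-0.35, adjusted p = 1.6e-05) and Vancomycin (-0.39, adjusted p = 0.00024).

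Of 19 speckle and SR splicing factors, which MALAT1 meets in nuclear speckles, 0 rose and 2 fell with Iohexol, 5 rose and 7 fell with Cisplatin, and 5 rose and 7 fell with Vancomycin (medians -0.16, -0.05 and -0.06). With library size as the only scaling the Cisplatin counts were 11 risen and 4 fallen. With Cisplatin 2 rose without the second Control or the second Cisplatin sample and 3 without the first or the third Cisplatin sample. With Vancomycin 3 rose without the second or the third Control sample or the second Vancomycin sample. With Iohexol 6 fell without the third Iohexol sample and 1 without any other single sample. SRSF1 fell with Cisplatin (-0.74, adjusted p = 1.9e-07) and Vancomycin (-0.69, adjusted p = 2.5e-06). CLK1, the kinase that loads SR proteins with phosphate, rose with Cisplatin (0.62, adjusted p = 3.8e-06) and Vancomycin (1.33, adjusted p = 1.0e-10).

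The enzymes that cut and guard the MALAT1 and NEAT1 ends (RNase P subunits, ELAC2 and METTL16) gave 0 changes in 12 genes with Iohexol by edgeR, DESeq2 or limma-voom, and 0 of them had an unadjusted p below 0.05 in edgeR. With Cisplatin 8 of 11 rose and 0 fell (median 0.30), where 29.2% of all tested genes rose and 30.6% fell. POP7 led (0.94, adjusted p = 8.8e-08), and leaving out single samples gave between 6 and 8 that rose. With Vancomycin 3 of 12 rose and 3 fell, among them POP1 (-1.01, adjusted p = 6.4e-08) and ELAC2 (-0.58, adjusted p = 1.4e-05). Of 11 microRNA processing genes, 0 rose and 3 fell with Iohexol, 1 rose and 6 fell with Cisplatin, and 1 rose and 5 fell with Vancomycin. With Iohexol 6 fell without the third Iohexol sample and 0 or 1 without any other single sample. DICER1, which cuts the hairpin of miR-22 and other microRNAs, fell with Cisplatin (-0.56, adjusted p = 6.0e-06) and Vancomycin (-0.70, adjusted p = 2.2e-06), and so did AGO2 (-0.47 and -0.70). Of 7 Polycomb complex 2 genes, 1 rose and 0 fell with Iohexol, 1 rose and 3 fell with Cisplatin, and 1 rose and 5 fell with Vancomycin, with the catalytic subunit EZH2 (-0.57, adjusted p = 1.6e-05) and SUZ12 (-0.76, adjusted p = 9.7e-07) among the latter.

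The wider class of annotated long noncoding RNAs, to which all 7 belong, was called mostly higher with Iohexol and Cisplatin and more often lower with Vancomycin. With Iohexol 118 of 1626 tested were called higher and 20 lower, with Cisplatin 433 of 1794 higher and 93 lower, and with Vancomycin 157 of 1600 higher and 226 lower. As shares, 7.26%, 24.1% and 9.81% of the class were called higher where 4.02%, 7.62% and 10.8% of all genes were, and 1.23%, 5.18% and 14.1% were called lower where 1.25%, 8.72% and 7.65% of all genes were. The median log2 fold change of the class was 0.22 with Iohexol, 0.42 with Cisplatin and -0.15 with Vancomycin. The filter on low counts can keep a gene only through the group where it is high. These shares and medians are therefore given as a description. The share of all counts that fell on the class was 0.749% to 0.803% in Control, 0.942% to 1.00% in Iohexol, close to 1.09% in Cisplatin and 0.684% to 0.693% in Vancomycin, without overlap between groups. With Iohexol the number called higher fell to 77 without the second Control sample and to 72 without the second Iohexol sample, and the number called lower fell to 13 without the second Control sample and to 12 without the first Iohexol sample. With library size as the only scaling, 89.5% of all called long noncoding RNAs were higher with Cisplatin, against 82.3% with TMM, and for all called genes the share was 65.0% against 46.6%.

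**Figure D5:**
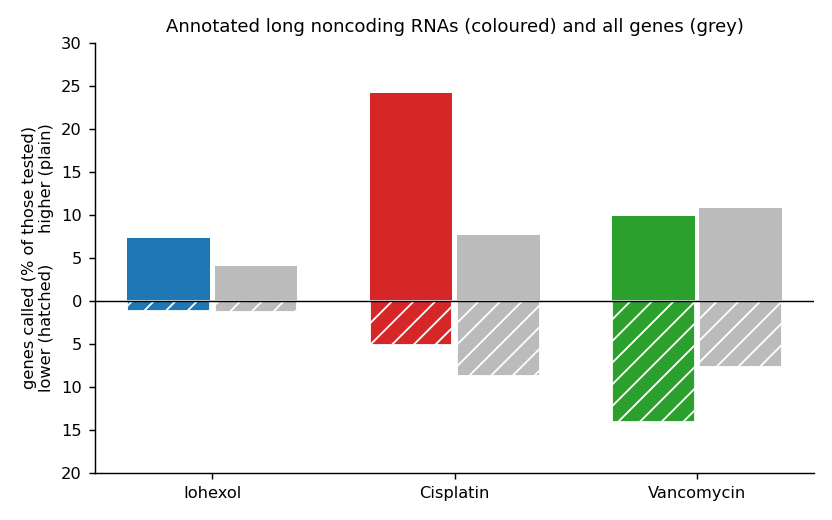
Share of annotated long noncoding RNAs (coloured bars) and of all tested genes (grey bars) called higher (plain, above 0) or lower (hatched, below 0) with each drug. Long noncoding RNAs reach 24.1% called higher with Cisplatin and 14.1% called lower with Vancomycin.

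UCA1 was chosen with its counts known and is left aside in this ranking by p. The other long noncoding RNAs called higher with the smallest p in Iohexol were AL161431.1 (log2 fold change 3.65, adjusted p = 1.4e-07), LINC02015 (1.99), MKLN1-AS (2.64) and LINC02532 (2.83). Called lower with the smallest p in Iohexol were AL139393.2 (-1.18, adjusted p = 5.1e-05), which overlaps MAP3K4, AC009549.1 (-1.47), LINC01508 (-1.51), MIR155HG and AC023449.2 (-1.28). MIR155HG, the host of the inflammatory microRNA miR-155, fell from 13.1 to 4.43 CPM with Iohexol (-1.55, adjusted p = 0.00020), and to 6.65 CPM with Cisplatin and 5.99 CPM with Vancomycin (adjusted p of 5.2e-06 and 2.2e-05). With Cisplatin the first called higher were LINC00857 (from 5.73 to 34.7 CPM, log2 fold change 2.59, adjusted p = 4.3e-12), CASC19 (1.92), SNHG17 (1.07), SFTA1P (1.49) and AC007773.1 (2.27). The first called lower were AL139393.2 (-1.39, adjusted p = 2.7e-09), PAX8-AS1, AC026356.1 (-2.82), LINC01111 (-1.68) and AL158212.3 (-2.88). PAX8-AS1, antisense to the tubule factor PAX8, fell with Cisplatin (-1.10, adjusted p = 3.8e-09), and its reads cannot be told apart from those of PAX8 where they overlap.

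With Vancomycin, again leaving UCA1 aside, the long noncoding RNAs called lower with the smallest p began with LINC00472 (-2.22, adjusted p = 3.0e-12). AC099850.3 (-2.29), which overlaps PRR11, LINC01111 (-4.27) and AC103718.1 (-2.59) followed. LINC00472 shared the order of UCA1, with 32.4 CPM in Control, 60.8 in Iohexol (0.93, adjusted p = 5.6e-05), 19.2 in Cisplatin (-0.75, adjusted p = 4.5e-06) and 7.15 in Vancomycin. Called higher with the smallest p were AC108134.2, at 0.0418 CPM in Control and 9.48 CPM in Vancomycin, AC068580.3, which overlaps the cathepsin gene CTSD (2.86), SNHG5 (1.57), MSC-AS1 (1.85) and MIR1-1HG-AS1 (1.35). AC108134.2 was below the floor of 3 counts in Control and passed the filter only through its Vancomycin samples. Its place in this ranking is therefore given as a description.

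Among 31 other tested long noncoding RNAs of wide study, 5 rose and 2 fell with Iohexol, 11 rose and 6 fell with Cisplatin, and 9 rose and 10 fell with Vancomycin (medians 0.06, 0.16 and -0.03). With library size as the only scaling 16 rose and 3 fell with Cisplatin, and with Iohexol 3 rose in each fit that left out 1 sample other than the third Iohexol sample. NORAD, an RNA that holds Pumilio proteins, rose with Cisplatin from 245 to 395 CPM (0.68, adjusted p = 1.6e-08). DANCR rose with Iohexol (0.73, adjusted p = 0.00069) and Cisplatin (0.37, adjusted p = 0.0038). The snoRNA hosts SNHG7, SNHG15 and SNHG5 rose with both Cisplatin and Vancomycin, and GAS5 rose with Vancomycin from 172 to 301 CPM (0.77, adjusted p = 3.5e-07). Of 11 tested hosts of other microRNAs, 0 rose and 2 fell with Iohexol, 3 rose and 4 fell with Cisplatin, and 2 rose and 3 fell with Vancomycin. MIR210HG, the host of the hypoxia microRNA miR-210, fell with Cisplatin from 5.00 to 1.32 CPM (-1.91, adjusted p = 1.4e-05). Its log2 fold change with Iohexol was -0.54 (adjusted p = 0.13).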

How the data were processed

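RNA was poly-T selected and sequenced in 12 samples of HK-2 cells. According to the submitters' processing notes the authors used CASAVA 1.8, fastp, HISAT2 2.0.5, featureCounts 1.5.0-p3 and DESeq2 1.20.0. The deposited values are raw counts per gene, not normalized, and all 58735 genes match GENCODE 29 (GRCh38) by ID, start and end. The genome build, annotation and strand setting are not given in the sources used here. Every column of counts was matched to a sample by its title.

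Each drug was compared with Control by edgeR 4.0.16 (quasi-likelihood test, TMM, filterByExpr with a minimum count of 10 and total of 15, Benjamini-Hochberg over all tested genes). The pipeline was tested on simulated data. The members and gene lists were chosen with earlier results of these data known. Genes named in the text were drawn from the 7 genes, list genes, neighbours within 100 kb and the 5 most similar genes per member, not all of which are named. Others were, per drug and direction, the 5 long noncoding RNAs of smallest p. These were taken among called genes whose samples do not overlap Control and whose mean is at least 1 CPM. The class of long noncoding RNAs holds 9 annotated biotypes. CPM used TMM library sizes, and log2 CPM a prior count of 2. Library totals of 14057282 to 18177109 set the precision, and the floor of 3 counts covers counting error only. Alternatives were RLE factors, library size alone, other filters, DESeq2 1.42.0, limma-voom 3.58.1, a fit of all 4 groups, a replicate block and leaving out single samples. Some items are not reported here.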

Additional observations from a re-analysis of the deposited data

How the results depend on the processing

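Across the alternatives, 285 of the values for the 7 genes moved by less than the replicate spread and 6 moved by more, all with library size as the only scaling. Among the latter UCA1 came to 2.92 with Iohexol and to 0.0866 with Cisplatin. Leaving out single samples kept UCA1 between 2.79 and 2.89 with Iohexol, -0.18 and -0.08 with Cisplatin, and -1.69 and -1.59 with Vancomycin. It gave 72 to 131 long noncoding RNAs called higher and 12 to 21 lower with Iohexol, 426 to 489 and 90 to 108 with Cisplatin, and 160 to 182 and 210 to 247 with Vancomycin. Keeping only genes with at least 10 counts in every sample left fewer genes to test: 60 called higher and 12 lower with Iohexol, 161 and 37 with Cisplatin, and 56 and 82 with Vancomycin. Over all genes, that filter gave 416 higher and 165 lower of 14172 tested with Iohexol. It gave 654 and 1037 of 13994 with Cisplatin, and 1202 and 848 of 13903 with Vancomycin. How many long noncoding RNAs were tested under it is not given here, so shares cannot be compared. Keeping all genes with at least 1 count gave 33 long noncoding RNAs called lower with Iohexol, 166 lower with Cisplatin and 238 higher with Vancomycin. Library size alone gave 13 of the class called lower with Iohexol. With Cisplatin the same scaling turned the sign of DROSHA (0.0567), EWSR1 (0.0449), HNRNPK (0.0737), NONO (0.0364), PRPF8 (0.21), RBBP7 (0.0143), RBM39 (0.0211), SLC43A2 (0.0135), SON (0.16), SRSF11 (0.17) and SRSF6 (0.17), where the median of all genes moved by 0.22. Replicate numbers did not pair the samples: deviations of same-numbered samples correlated between -0.18 and 0.10 over the 9 pairs, and a replicate block gave 2.84 for UCA1 with Iohexol and 86 long noncoding RNAs called higher and 15 lower.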
